A study of Homo sapiens with 18 samples.

Results

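The repeats described here lie in a window of 450 kb on chromosome 16 of the human genome, hg19 chr16:88250000-88700000, in band 16q24. The window surrounds an L1MB7 copy of 545 bases that ends at 88455994 and, less than 1 kb to its right, an ERVL-B4-int copy of 371 bases that ends at 88456738. These were selected on their counts after 12 and 24 h of 5-fluorouracil (5-FU). Every repeat copy with its start and end inside the window is a member: 370 of 2404193 copies in the deposited 5-FU table and 304 of 1996647 in the Nutlin table, with 298 copies in both. Because the 12 h and 24 h values of 5-FU chose the place, those values are given as a description: counts of calls at those times are printed without p-values, and nothing is read from them. The 6 h values of 5-FU, the Nutlin values and the comparison of DMSO with untreated cells did not choose it and were tested.

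The study asked how RNA from repeat elements goes with the tumour suppressor p53 in IMR90 cells, a long-used line of fibroblasts from human lung. Nutlin (5 µM, 6 h) keeps MDM2 from binding p53, and 5-FU (375 µM for 6, 12 or 24 h) is an antimetabolite that disturbs RNA and DNA synthesis. Each drug group of 2 samples was matched by 2 DMSO samples for its drug and time, and 2 samples were untreated, with the medium changed 12 h before extraction, which gives 9 groups and 18 samples of 1 cell line. Total RNA libraries that keep strand were made, per the labels. The labels do not say whether the 2 samples of a group were separate cultures, so p-values measure only the spread between these samples, which may be technical. The tables list no genes, so markers of fibroblasts could not be checked, and in bulk RNA a change in the share of cells cannot be told apart from a change in RNA per cell.

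Most repeats in the human genome are fossils of elements that can no longer move, and their RNA is often part of longer transcripts that read through them. L1 and L2 are long interspersed elements, of which L2 and the L1MB subfamilies are ancient. MIR and Alu are short elements that borrow the machinery of long ones, ERVL and MLT1 elements descend from or were copied by endogenous retroviruses and are flanked by long terminal repeats (LTRs), and Charlie5 is a fossil DNA transposon. Where copies of unrelated families lie side by side, their counts give a sampled map of any RNA that crosses them, with no view of the unique sequence in between.

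The window was a sparse sampler of this kind. In the 5-FU table, its copies were 127 Alu, 93 MIR, 51 L1, 44 LTR, 28 DNA transposon, 26 L2 and L3 copies and 1 other, and they covered 18.3% of its bases. The longest stretch with no copy ran for 58889 bases from 88381234. In 43 copies of the 5-FU table and 78 of the Nutlin table, 32 and 62 of them Alu, no library had a count. No copy was named LTR10 or MER61, LTR families known for carrying p53 binding sites. Of the 370 copies, 34 passed the filter on low counts and were tested, as did 4 of the 304 in the Nutlin table. A copy that passed may have done so only through the group in which it was high. Without an annotation of build hg19, which was not used here, the copies were not assigned to genes, exons or introns, and the row names carry no strand, so left and right below mean lower and higher coordinates.

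Total counts were 2412334 to 6290320 in the 14 libraries of the 5-FU table, of which 135 to 3123 fell in the window, and 9109885 to 11880265 in the Nutlin table, of which 170 to 323 did. Levels below are CPM, counts scaled to a common library size after TMM scaling, a correction for differences in composition. The Nutlin totals are not comparable with those of the 5-FU table, so no level was compared between tables. In the Nutlin table both columns for untreated cells hold the same counts and were used as 1 sample. The share of all repeat copies with a count also varied: it was 14.6% and 15.9% in DMSO 12 h, 22.1% and 22.5% in DMSO 6 h, and 17.2% and 27.3% in the replicates of 5-FU 24 h. The DMSO 12 h libraries had the lowest totals and the second 5-FU 24 h library the highest total and share, and the 12 h changes of the core copies and the lengths of the runs are also given with other controls or without single libraries.

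The L1MB7 copy had the highest CPM of the window's copies, not divided by length. Its level in untreated cells was 8.01 and 13.7 CPM. In DMSO it was 17.9 and 13.7 CPM at 6 h, 8.16 and 7.65 CPM at 12 h, and 8.05 and 10.5 CPM at 24 h. With 5-FU it was 63.2 and 78.1 CPM at 6 h, 170 and 162 CPM at 12 h, and 188 and 123 CPM at 24 h. All 6 libraries with 5-FU lay above all 8 without it, as they did in 1.52% of all copies tested. The 4 libraries of 12 and 24 h lay above the 2 of 6 h. Nothing is read from this order, since the libraries of 12 and 24 h chose the place. At 6 h, the earliest time, the mean went from 15.8 ± 2.99 to 70.7 ± 10.6 CPM (SD, n = 2), a log2 fold change of 2.16 (SE 0.26) with an adjusted p of 0.000353 in edgeR's quasi-likelihood test over all copies. Against their own DMSO samples, the levels of 12 and 24 h were 21 and 16.8 times as high.

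**Figure D1:**
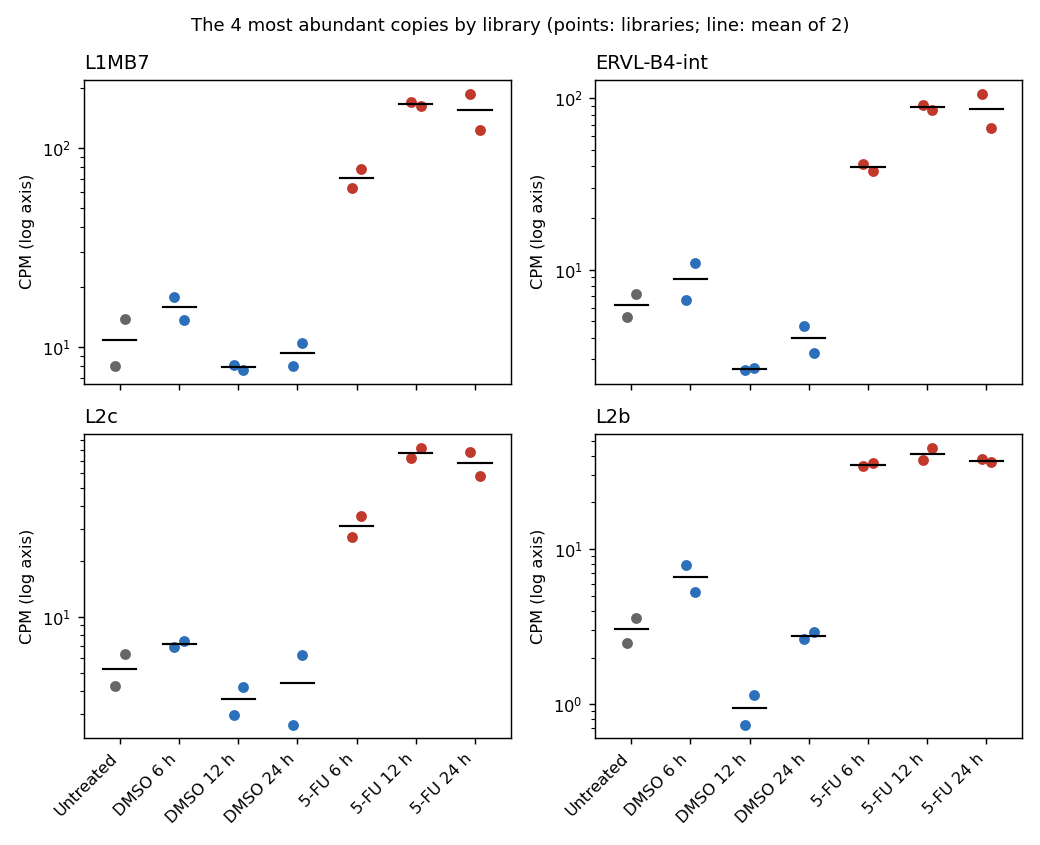
CPM (log axis) of the L1MB7, ERVL-B4-int, L2c and L2b copies in each of the 14 libraries of the 5-FU table, with a line at the mean of the 2 libraries of a group. In each panel the 6 points with 5-FU (red) lie above the 8 untreated (grey) and DMSO (blue) points. This order is a description, because the later 5-FU libraries chose the place. Only L2b, at 34.1 to 44.7 CPM with 5-FU, is nearly level from 6 to 24 h.

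The ERVL-B4-int copy, an internal part of an endogenous retrovirus, behaved in the same way at a lower level. It was at 5.26 and 7.17 CPM in untreated cells and between 2.59 and 10.9 CPM in the 6 DMSO libraries. With 5-FU it reached 41.4 and 37.6 CPM at 6 h, 91.1 and 85.1 CPM at 12 h, and 106 and 66.9 CPM at 24 h. The 6 libraries with 5-FU again lay apart from the 8 others, a description only, since those of 12 and 24 h chose the place. At 6 h it rose from 8.80 ± 3.02 to 39.5 ± 2.63 CPM (SD, n = 2), with a log2 fold change of 2.16 (SE 0.28) and an adjusted p of 0.000718 in edgeR. At 12 and 24 h it was 33.4 and 21.8 times as high as in DMSO, and the DMSO 12 h libraries were low.

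Next to the right lay L2c (88457143 to 88457307) and L2b (88459050 to 88459439), fragments of ancient LINE elements. L2c was at 2.62 to 7.42 CPM in the 8 libraries without 5-FU, at 27.2 and 34.98 CPM at 6 h, 72.3 and 81.9 CPM at 12 h, and 78.3 and 57.9 CPM at 24 h. L2b was at 0.74 to 7.91 CPM without 5-FU, at 34.1 and 35.7 CPM at 6 h, 37.3 and 44.7 CPM at 12 h, and 38.0 and 36.2 CPM at 24 h. L2b thus stayed near its 6 h level while L1MB7, ERVL-B4-int and L2c went on upward between 6 and 12 h, a difference in course that was not tested. At 6 h both rose, with log2 fold changes of 2.12 for L2c (SE 0.31, adjusted p 0.00236 in edgeR) and 2.40 for L2b (SE 0.27, adjusted p 0.000318).

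The other members of this 5 kb core (88455001 to 88460000) were short. MIR (88456022 to 88456151), a short element 27 bases to the right of L1MB7, went from 3.12 and 5.27 CPM in DMSO to 10.3 and 13.7 CPM with 5-FU at 6 h, a log2 fold change of 1.505 that missed the threshold (adjusted p 0.152 in edgeR). MIRb (88457510 to 88457596) went from 2.50 and 3.52 to 12.6 and 11.4 CPM and passed narrowly (log2 fold change 1.98, SE 0.39, adjusted p 0.0475 in edgeR). Charlie5 (88458477 to 88458650) had 15 and 4 counts in DMSO and 21 and 44 with 5-FU at 6 h, and missed the threshold (log2 fold change 1.73, adjusted p 0.443 in edgeR). In all 7 core copies the 6 libraries with 5-FU lay above the 8 without it, as they did in 1.52% of all copies tested. The later libraries among these 6 chose the place, so nothing is read from the count of 7.

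Counted over the window, 6 of the 34 tested copies were higher with 5-FU at 6 h and 0 were lower, where 0.0896% of all copies tested were called higher and 0.011% lower. The 6 were L1MB7, ERVL-B4-int, L2c, MIRb, L2b and, just past the core, Charlie5 (88460713 to 88460916). They ran from L1MB7 to position 88460916. This second Charlie5 was at 2.29 and 2.34 CPM in DMSO and at 8.57 and 13.3 CPM with 5-FU, and its log2 fold change was 2.23 (SE 0.38, adjusted p 0.0149 in edgeR). The median log2 fold change of the 34 copies was 1.35, against -0.0011 for all copies tested. Some copies may have passed the filter only through libraries with 5-FU, so nothing is read from this median. The count rests on few samples: it was 2 without DMSO 6 h replicate 1, 3 without DMSO 6 h replicate 2 and 3 without 5-FU 6 h replicate 2. L1MB7 and L2b kept their calls under all 11 alternative settings, and ERVL-B4-int under 10.

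The calls at 12 and 24 h come from the values that chose the place, so nothing is read from their number. Of the 34 copies, 10 were called higher at 12 h and 10 at 24 h, where 5.44% and 2.42% of all copies were. All 7 core copies were among them at both times. The called copies reached from AluJo (88451768 to 88452068), one of the oldest Alu subfamilies, to Charlie5 (end 88460916) at 12 h, and from L1MB7 to MIRb (88465293 to 88465419) at 24 h. Both DMSO 12 h libraries had 0 counts at AluJo and at MIRc (88460017 to 88460130), which gives ratios of at least 1.94-fold and at least 3.88-fold higher against 3 counts per library. For L2b and MIRb of the core, with 5 and 2 counts in DMSO 12 h, the ratios of summed counts at 12 h were 43.6 (95% counting interval 18.5 to 135) and 86.1 (23.6 to 716), intervals that cover counting error only.

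The ratios at 12 h changed with the controls used. For the core, DMSO 12 h was the lowest of the groups without 5-FU and DMSO 6 h the highest. In DMSO, the core summed to 48.1 and 46.9 CPM at 6 h, 18.9 and 20.3 CPM at 12 h, and 23.4 and 25.5 CPM at 24 h. In untreated cells it summed to 23.5 and 34.97 CPM. With 5-FU it summed to 193 and 220 CPM at 6 h, 448 and 438 CPM at 12 h, and 477 and 341 CPM at 24 h. The ratio of means was 4.35 at 6 h, 22.6 at 12 h and 16.7 at 24 h, so the level at 24 h was close to that at 12 h while the ratio was lower. With the DMSO samples of 6 and 24 h as controls in place of those of 12 h, the L1MB7 change at 12 h was 3.77 on the log2 scale, compared with 4.39. On that scale ERVL-B4-int went from 5.05 to 3.89, L2b from 5.40 to 3.25 and MIRb from 6.32 to 3.99 with these controls. MIR went the other way, from 3.16 to 3.60. The part of the low DMSO 12 h and of the high DMSO 6 h levels in these changes was not tested.

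Levels between copies can be compared only per length. Per kb of copy, the highest level at 12 h was that of L2c, at 467 CPM per kb, followed by MIRb at 373, L1MB7 at 304, MIR at 260 and ERVL-B4-int at 237 CPM per kb. L2b was at 105 CPM per kb and the core Charlie5 at 28.5 CPM per kb. At 24 h L2c again led at 413 CPM per kb, L1MB7 and MIRb were level at 286 and 285, and L2b and Charlie5 again came last at 95.2 and 42.7 CPM per kb. At 6 h L2c also led with 188 CPM per kb, and L2b, at 89.5, was close to MIR, at 92.2 CPM per kb. Counts per kb thus differed between the core copies. How reads that match several copies or lie only partly in a copy were counted is not given in the sources used here. The part of this counting and of copy length in these differences was not tested.

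**Figure D2:**
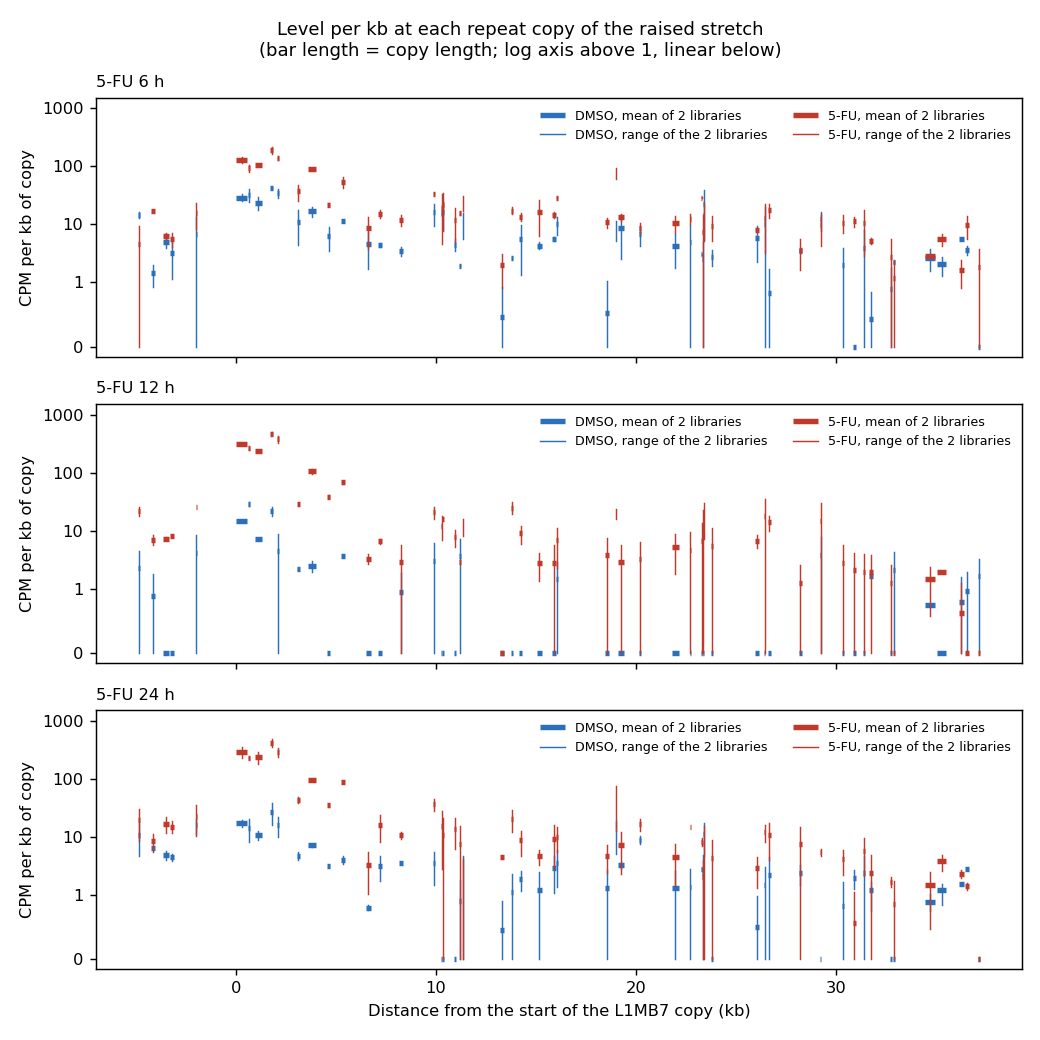
Mean CPM per kb of copy (vertical axis, log above 1) at each repeat copy from 5 kb left to 40 kb right of the core's start, by distance from the start of L1MB7 in kb. Bars are as long as the copies and thin lines join the 2 libraries. The 5-FU bars (red) are highest over the first 4 kb, led by L2c at 188, 467 and 413 CPM per kb at 6, 12 and 24 h, and come closer to the DMSO bars (blue) further right.

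Within the core, L1MB7 gave 33.2% to 40.4% of the core counts on average in each of the 7 groups of the 5-FU table. L2b gave 16.9% at 5-FU 6 h, against 9.27% at 12 h and 9.29% at 24 h, and 4.79% to 13.9% in the groups without 5-FU. The share of MIR ran from 4.26% in untreated cells to 19.3% in DMSO 12 h, and that of MIRb from 1.89% in DMSO 12 h to 7.31% at 5-FU 12 h. These shares are descriptions over 2 libraries a group.

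The window holds 3 copies named L1MB7, and the other 2 had few counts and were not tested. The copy at 88340432 to 88342006, with 1575 bases the longest of the 3, had 14 counts over all 14 libraries of the 5-FU table and at most 2 in any library with 5-FU. The copy at 88656082 to 88656399 had 32 counts in all, with 5 and 11 in the 5-FU 6 h libraries, 1 and 0 in those of 12 h, and 3 and 2 in those of 24 h. Its counts were 2 and 1 in DMSO 6 h, 0 and 1 in DMSO 12 h, 5 and 1 in DMSO 24 h and 0 and 0 in untreated cells, so both 5-FU libraries lay above their DMSO samples at 6 h. The induced copy had 3829. By the numbers in the row names, read here as positions in the family's consensus, the induced copy holds positions 5569 to 6135, which the first of the others (4580 to 6184) also holds.

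The extent of the raised RNA was mapped by summing all copies in bins of 5 kb. A bin was called raised when it held at least 10 counts, both drug libraries lay above both DMSO libraries, and the ratio of means was at least 2. At 5-FU 6 h the run of raised bins through L1MB7 held 5 bins, from 88455001 to 88480000. At 24 h it held 8 bins, from 88450001 to 88490000. At 12 h it held 9 bins and was drawn out to 200 kb, from 88290001 to 88490000, by stepping over bins with too few counts. With such bins ending the run, a rule added after the values were seen, it held 8 bins from 88450001 to 88490000.

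The copies at the ends of these runs show how thin the margins were. The last copy of the 6 h run, MER102a (88479199 to 88479306), had 1 and 2 counts in DMSO and 7 and 3 with 5-FU, and the next outside, MIRb (88481413 to 88481587), had 8 and 2 in DMSO and 7 and 7 with 5-FU. At its left end, L1MB7 was followed outward by MER91A (88453423 to 88453468), with 3 and 0 counts in DMSO and 5 and 2 with 5-FU. The last copy of the 12 and 24 h runs, L2b (88488299 to 88488388), had at most 1 count in any of the 8 libraries. None of these 4 short fragments passed the filter for a test. Next outside at 24 h, MLT1F1 (88489911 to 88490414), an LTR fragment, had 2 and 3 counts in DMSO and 1 and 8 with 5-FU. The first copy on the left of that run, MIRb (88450541 to 88450622), had 2 and 8 counts in DMSO 24 h and 3 and 16 with 5-FU. The distant bin at the left end of the 12 h run owed its call to copies such as MLT1D (88294318 to 88294554), with 2 and 0 counts in DMSO and 9 and 8 with 5-FU. Of the bins with at least 10 counts, 8 of 36 were raised at 6 h, 12 of 22 at 12 h, 11 of 37 at 24 h and 4 of 22 with Nutlin. Over the genome 5.07%, 14.3%, 9.4% and 10.8% were.

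Single libraries moved these lengths. The 6 h run ranged from 2 bins, without DMSO 6 h replicate 2 or without 5-FU 6 h replicate 1, to 8 bins without DMSO 6 h replicate 1. Without 5-FU 6 h replicate 2 it held 6 bins but spanned 140 kb, from 88335001 to 88475000, because it stepped over bins with too few counts. The 24 h run fell to 3 bins, 88455001 to 88470000, without 5-FU 24 h replicate 2, the library with the high share of detected copies. The 12 h run came to the same 3 bins when the DMSO samples of 6 and 24 h were the controls. The core bin and the bin to its right were in every run with 5-FU under the settings tried.

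**Figure D3:**
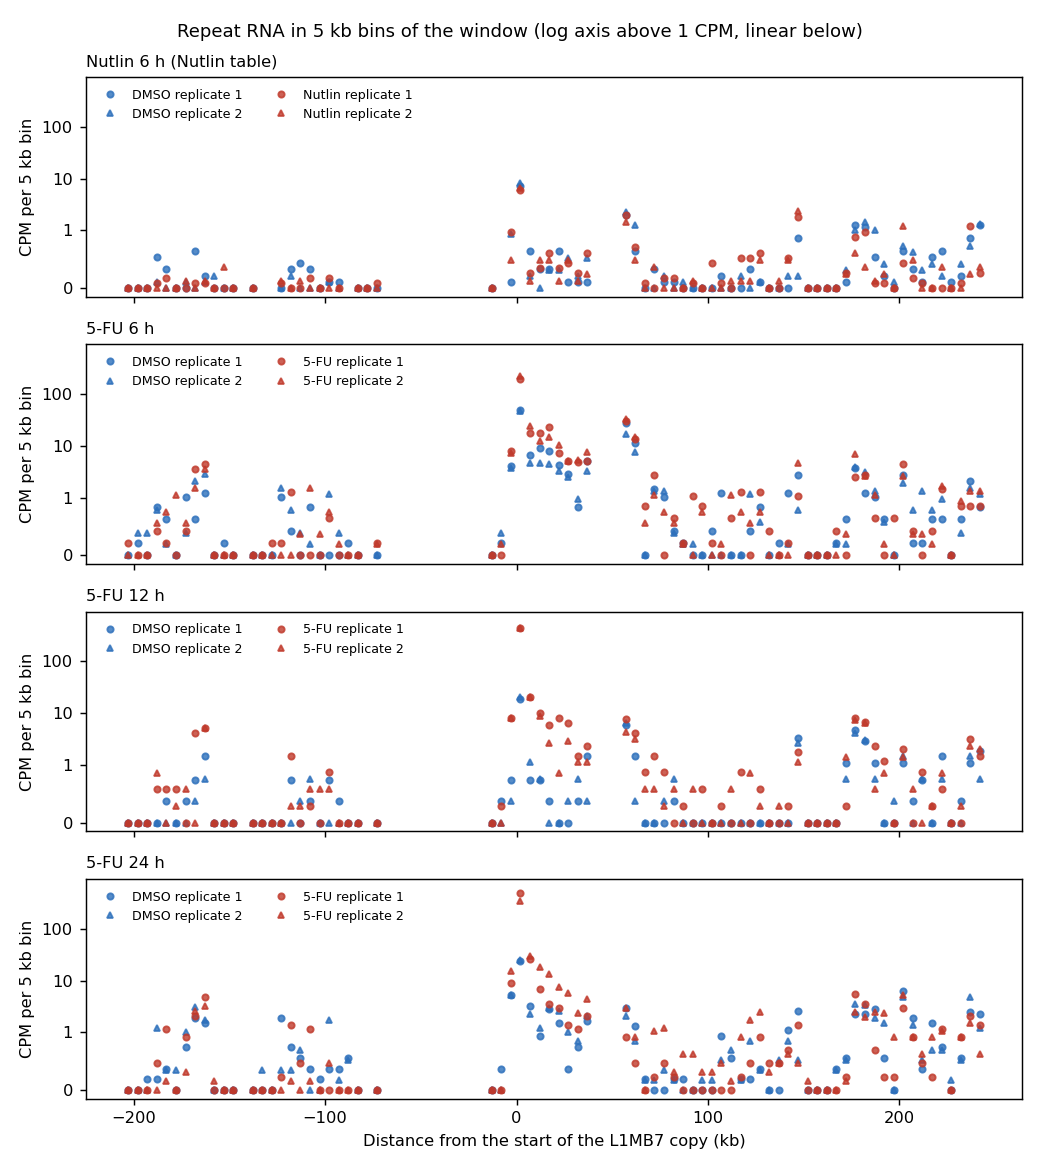
CPM of all repeats in each 5 kb bin (vertical axis, linear below 1 and log above) by distance from the start of L1MB7 in kb, for Nutlin 6 h and 5-FU 6, 12 and 24 h, with each drug (red) and DMSO (blue) library as a point. The core bin reaches 193 to 477 CPM with 5-FU against 18.9 to 48.1 CPM in DMSO. The bin next to its right is already far lower, at 17.4 to 29.3 CPM with 5-FU. Bins are not scaled to the repeat bases they hold. Both Nutlin points of the core bin (5.99 and 6.64 CPM) lie below both DMSO points (7.13 and 8.34 CPM). Levels of the Nutlin panel are not comparable with those of the 5-FU panels.

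In the test of bins at 6 h, 2 of 21 tested bins were higher and 0 lower, where 0.0702% of all bins tested were higher and 0.016% lower. They were the core bin, with a log2 fold change of 2.12 (SE 0.21, adjusted p 6.24e-07 in edgeR), and the bin 88460001 to 88465000, with 1.88 (SE 0.33, adjusted p 0.00547). The latter rose from 6.66 and 4.69 CPM in DMSO to 17.4 and 24.5 CPM with 5-FU. Further right the point estimates stayed positive (1.14 in the bin at 88465001, 1.59 at 88470001, 1.21 at 88475001) with adjusted p-values of 0.31 to 0.61 in edgeR. Beyond the 6 h run, the bin at 88480001 had a log2 fold change of 0.91 (adjusted p 0.703 in edgeR). The next, at 88485001, had 4 and 5 counts in DMSO and 23 and 28 with 5-FU, a log2 fold change of 2.46 (95% interval 1.04 to 3.89, adjusted p 0.314 in edgeR), above the estimate of the core bin. Only 1 of the 2 bins was called without DMSO 6 h replicate 2 or without 5-FU 6 h replicate 2.

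For description, the stretch was then cut into the core, 5 kb to its left, 35 kb to its right (88460001 to 88495000) and a block around MLT1G1 copies further right (88510001 to 88520000), limits set after the values were seen. The 43 copies of the right 35 kb summed to 9.01 and 8.37 CPM in untreated cells. In DMSO they were at 36.8 and 24.0 CPM at 6 h, 3.71 and 3.44 CPM at 12 h, and 11.2 and 12.9 CPM at 24 h. With 5-FU they were at 80.6 and 79.8 CPM at 6 h, 55.3 and 38.6 CPM at 12 h, and 44.2 and 81.3 CPM at 24 h.

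The mean of the right flank with 5-FU was highest at 6 h, but the second 24 h library was as high as both 6 h libraries. Its ratio to DMSO was 2.64 at 6 h, 13.1 at 12 h and 5.20 at 24 h, highest at 12 h as in the core. Whether flank and core differed in course was not tested. Per kb of repeat, the flank had 11.2% of the core's level at 5-FU 6 h, 3.05% at 12 h and 4.42% at 24 h. Without 5-FU this share was 8.56% in untreated cells, and 18.5%, 5.26% and 14.2% in DMSO at 6, 12 and 24 h. The flank is made of many weakly covered copies. Among the DMSO samples its level was lowest at 12 h, where 14.6% and 15.9% of all copies had a count. It was highest at 6 h, where 22.1% and 22.5% did. DMSO 24 h had a larger share, 22.7% and 25.3%, but a lower flank than DMSO 6 h, at 11.2 and 12.9 CPM. With 5-FU at 24 h the flank was higher in the second than in the first library, with 27.3% and 17.2% of copies detected. The 5-FU 12 h libraries, with 13.1% and 13.6%, were not low. The part of detection in the flank's level was not tested.

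To the left, the 5 kb next to the core held little RNA. Its 5 copies summed to 4.16 and 3.71 CPM in DMSO and 7.93 and 7.22 CPM with 5-FU at 6 h. They summed to 0.74 and 0.38 CPM in DMSO and 7.94 and 8.13 CPM with 5-FU at 12 h, from 2 and 1 counts against 27 and 28. At 24 h they were at 5.24 and 5.16 CPM in DMSO and 9.03 and 15.3 CPM with 5-FU. The libraries with 5-FU lay above their DMSO samples at each time. L3 (88451176 to 88451384) and AluJo (88451768 to 88452068) were the tested copies here, and neither was called at 6 h. L3, an ancient relative of L2, had 2 and 1 counts in DMSO and 16 and 19 with 5-FU at 6 h. Its log2 fold change of 3.42 (SE 0.89, adjusted p 0.255 in edgeR) was the largest estimate of the 34 copies at that time. L3 was at most at 1.38 CPM without 5-FU and may have passed the filter only through libraries with 5-FU. Nothing is read from its rank.

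Counting only whether libraries overlapped, 24 of the 34 tested copies had both 5-FU libraries above both DMSO libraries at 6 h, 20 at 12 h and 18 at 24 h, where 20.6%, 27.4% and 22.3% of all copies did. In 10 of the 34, all 6 libraries with 5-FU lay above all 8 without it, as they did in 1.52% of all copies tested. The libraries of 12 and 24 h chose the place and 4 of these 6 are among them. Nothing is read from the counts of copies that rest on them. Some copies may have passed the filter only through libraries with 5-FU, so nothing is read from the count of 6 h either. The 10 were the 7 core copies and, right after them, MIRc (88460017), Charlie5 (88460713) and MLT1K (88462545 to 88462746). No copy beyond 88462746 did so.

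**Figure D4:**
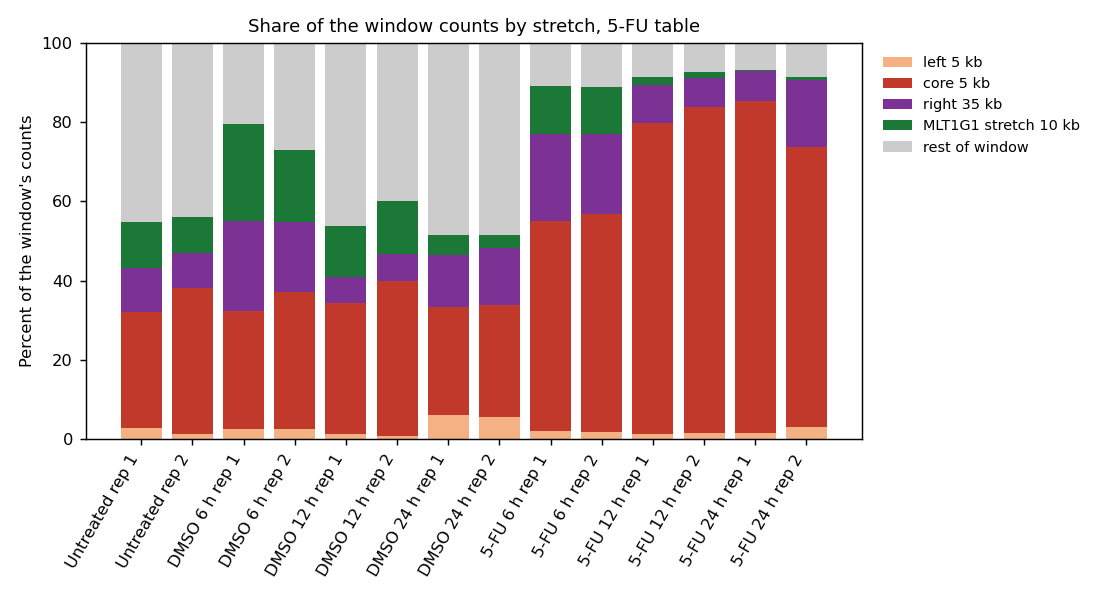
Percent of the window's counts in the left 5 kb, the core 5 kb, the right 35 kb, the MLT1G1 block and the rest of the window, for each of the 14 libraries of the 5-FU table. The core takes 27.3% to 39.3% in the 8 libraries without 5-FU, 52.8% and 55.1% at 5-FU 6 h and 70.6% to 83.6% at 12 and 24 h.

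The core's share of the window's counts was higher in each library with 5-FU than in any without it. It was 27.3% to 39.3% in the 8 libraries without 5-FU, and with the drug it was 52.8% and 55.1% at 6 h. At 12 h the core took 78.3% and 82.4% of the window's counts, and by 24 h 83.6% and 70.6%. The 302 copies outside the named stretches held 33.1 and 36.7 CPM in DMSO and 40.1 and 44.3 CPM with 5-FU at 6 h. At 12 h they held 26.3 and 20.7 CPM in DMSO and 49.1 and 39.5 CPM with 5-FU. At 24 h they held 41.6 and 43.7 CPM in DMSO and 38.9 and 41.8 CPM with 5-FU. Their ratios were 1.21 at 6 h, 1.89 at 12 h and 0.947 at 24 h, small beside those of the core.

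The MLT1G1 block to the right was highest at 6 h and lowest at 24 h, both in DMSO and with 5-FU. Its 13 copies, among them MLT1G1 and MLT1G1-int, remains of retrovirus-like elements, summed to 9.26 and 8.67 CPM in untreated cells. In DMSO they were at 39.3 and 24.8 CPM at 6 h, 7.41 and 6.88 CPM at 12 h, and 4.31 and 2.92 CPM at 24 h. With 5-FU they were at 44.1 and 48.1 CPM at 6 h, 11.8 and 7.55 CPM at 12 h, and 1.39 and 3.87 CPM at 24 h. High levels were thus found at 6 h with and without the drug. Both 5-FU libraries lay above both DMSO libraries at 6 and 12 h, with ratios of means of 1.44 and 1.35, and the ratio at 24 h was 0.73. As a description, the log2 fold change at 12 h was -0.05 in the bin at 88510001 and 1.93 in the bin at 88515001. Of the 9 copies tested here none was called at 6 h, and the 2 bins had log2 fold changes for 5-FU of 0.50 and 0.59 (adjusted p 0.698 and 0.706 in edgeR).

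DMSO itself was compared with untreated cells to see how far the window moves without drug. Taking the 3 DMSO groups together, 0 of 34 copies were called by edgeR, where 1.66% of all copies were called in either direction. At an unadjusted p under 0.05 there were 2, and DESeq2 called 0. Of the 21 bins 0 were called, where 1.72% were, with 5 at an unadjusted p under 0.05. DMSO 6 h alone gave 0 of 34 copies, where 1.37% of all copies were called in either direction, and 14 of the 34 had an unadjusted p under 0.05. A test of bins for DMSO 6 h alone, which was not planned, gave 3 of 21 bins higher, where 1.36% of all bins were called higher. These were the bins at 88460001 (log2 fold change 2.35, SE 0.48, adjusted p 0.00559 in edgeR), 88510001 (1.70, SE 0.37, adjusted p 0.0103) and 88515001 (2.19, SE 0.49, adjusted p 0.0140). The last 2 bins are the MLT1G1 block. L1MB7 differed by 0.55 on the log2 scale between DMSO 6 h and untreated cells (adjusted p 0.38 in edgeR). DMSO itself and the time since the medium was changed, which the labels give for the untreated samples only, cannot be told apart here.

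With Nutlin, no rise was found in the tested copies or the bin of the core. L1MB7 had 25 and 28 counts in DMSO, 38 and 19 with Nutlin and 33 in the untreated sample. The libraries overlapped, and the log2 fold change was 0.03 (95% interval -0.65 to 0.70, adjusted p 0.981 in edgeR). ERVL-B4-int had 14 and 21 counts in DMSO and 10 and 9 with Nutlin, a log2 fold change of -0.92 (-1.87 to 0.03, adjusted p 0.276 in edgeR). L2c had 14 and 12 counts in DMSO and 4 and 11 with Nutlin (log2 fold change -0.79, adjusted p 0.50 in edgeR). The core bin held 66 and 80 counts in DMSO (7.13 and 8.34 CPM) and 68 and 55 with Nutlin (5.99 and 6.64 CPM), with a log2 fold change of -0.30 (-0.73 to 0.14, adjusted p 0.461 in edgeR).

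By edgeR 0 of 4 copies were called with Nutlin, where 9.57% of all copies tested were called in either direction. There were 0 at an unadjusted p under 0.05, and DESeq2 called 0. Of the 5 bins tested 0 were called, where 9.17% of all bins were, with 2 at an unadjusted p under 0.05 and 0 by DESeq2. The fourth tested copy, AluJr (88602591 to 88602881), far to the right, had a log2 fold change of 1.52 (adjusted p 0.232 in edgeR), and its 5 kb bin had 8 and 2 counts in DMSO and 21 and 20 with Nutlin (log2 fold change 1.97, SE 0.66, adjusted p 0.0824 in edgeR). Without DMSO replicate 1 of the Nutlin table, 1 bin was called. The interval of L1MB7 with Nutlin ends at 0.70, below the point estimate of 2.16 for 5-FU at 6 h, but the 2 tables were normalized separately and the difference between the drugs was not tested.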

How the data were processed

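The authors deposited raw counts for each annotated copy of a repeat, in one table for 5-FU and another for Nutlin. The submitters' processing notes name Trimmomatic 0.32, cutadapt 1.10, Bowtie2, edgeR, DESeq2 and build hg19. The counting program, the repeat annotation and the handling of reads that match several copies are not given in the sources used here. Groups came from the labels. The window, the repeat classes and the copies named were chosen with earlier results of these data known. Copies named are the pair that defined the window, the 12 with the highest mean CPM over 5-FU 12 h and 24 h, called copies, and those at or next outside the ends of runs. Others (the further L1MB7 copies, the MLT1G1 block) were chosen after their values were seen.

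The quasi-likelihood test of edgeR 4.0.16 (R 4.3.3, limma 3.58.1) was run in a single fit per table with a mean per group, after filterByExpr and TMM scaling, with Benjamini-Hochberg adjustment over all 63602 copies of the 5-FU table or 21328 of the Nutlin table. A call is an adjusted p under 0.05. Bins of 5 kb (81245 and 25405 tested) were fitted likewise. Exact tests of single values were not used, since 2 samples against 2 give no p under 0.333. Alternatives were DESeq2 1.42.0, other scalings and filters, a replicate block and leaving out each library. The fits were tested on simulated data: the share of false calls was near the threshold with an even spread between loci and above it with an uneven one, so calls close to the threshold are weak. Tables were made with pandas 2.3.3, numpy 2.4.6 and Python 3.11.15, intervals with scipy 1.17.1 and plots with matplotlib 3.10.9. With library size alone in place of TMM, the median log2 fold change of all copies was -0.36 at 5-FU 12 h, compared with -0.04.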

Additional observations from a re-analysis of the deposited data

How the results depend on the processing

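Counts set the limits: in DMSO 12 h a window copy had at most 22 counts, and 336 of 370 copies were too low to test. Called copies at 5-FU 6 h numbered 2 to 5 when single libraries were left out, compared with 6. With at least 10 counts in every library of the comparison, 1 was called at 12 h and 4 at 24 h, where only 1 and 4 were left to test, and DMSO against untreated cells kept the value 0. Called bins at 5-FU 6 h numbered 1 to 2 and with Nutlin 0 to 1 without single libraries, and DMSO 6 h alone gave 3 against untreated cells. The run at 5-FU 6 h held 2 to 8 bins without single libraries, 8 at a ratio of 1.5 and 2 at a ratio of 3. The run at 12 h held 5 bins of 10 kb, and 3 with DMSO 6 h and 24 h as controls. The run at 24 h held 4 bins with library size alone, 4 of 10 kb, 3 at a ratio of 3, and 3 to 9 without single libraries. Bins of 10 kb cover more sequence each, and the other causes were not tested.

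The sign changed only where the change was near 0 or between control groups. L1MB7 in DMSO against untreated cells was -0.04 on the log2 scale, and 0.55 with DMSO 6 h alone and -0.39 to 0.35 without single libraries, with 0.02 without DMSO 6 h replicate 2 and 0.35 without untreated replicate 2. ERVL-B4-int there was -0.45, and 0.51 with DMSO 6 h alone. L1MB7 with Nutlin was 0.03, and -0.11 with library size alone, and -0.30 to 0.24 without single libraries, with -0.04 without DMSO replicate 1 and -0.30 without Nutlin replicate 1. The cause was not tested.

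Replicate numbers showed little pairing of the samples at 5-FU 6 and 12 h and with Nutlin. Deviations of same-numbered libraries from their group means correlated there at 0.01, -0.01 and -0.04 over 5 kb bins. At 5-FU 24 h they correlated at 0.29, and the main fit used no pairing at any time. With a replicate block, 5 copies were called at 5-FU 6 h and, as a description, 10 at 12 h and 10 at 24 h.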
